A study of Rattus norvegicus with 3 samples.

Results

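The comparison described here set the small RNA library of IL-4/C1q-treated rat astrocytes against the library of untreated astrocytes, over miRNAs assigned to a rat entry. All rows with a rat name were kept, rows of one mature name were summed, and each count was divided by the rat-named total of its library. A miRNA was compared when the higher of the 2 libraries held at least 50 counts, which left 354 of 499 rat-named miRNAs. These libraries were 2 of the 3 in the study, the other coming from astrocytes given IL-1α/TNF-α/C1q.

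Per the labels, the cells were primary astrocytes of wild type neonatal rats, and the RNA came from extracellular vesicles (EVs, membrane particles shed by cells) collected from their medium. The untreated cells received no cytokine, and the treated cells received interleukin-4, a cytokine linked to alternative activation of myeloid cells, together with the complement protein C1q from day 6 for 24 h. IL-4 and C1q were always given together, so an effect of one cannot be told apart from an effect of the other. All libraries carried the same batch label. The extraction protocol also mentions total RNA of the astrocytes themselves, which leaves the EV origin in some doubt. Each condition had 1 library, with no information on how many animals or cultures it held. There was thus no replicate check: a ratio compares 2 libraries rather than 2 conditions, and its 95% interval covers counting error only.

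A miRNA is a short RNA cut from a hairpin, whose 5p and 3p arms can each be loaded into an Argonaute protein. The loaded strand finds target mRNAs mainly through its seed, bases 2 to 8 from the 5′ end, so miRNAs that share a seed share many predicted targets. Hairpins that lie close together on one strand are often cut from 1 primary transcript, and EVs carry a mixture of the miRNAs of the cells that release them.

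The sequences that carry the results below are RefSeq entries on the rat assembly GRCr8, written 5′ to 3′ with the seed in capitals. The first set is of miRNAs with much lower shares in the IL-4/C1q library, from epithelial (miR-200c-3p, miR-141-3p, miR-205), erythroid (miR-451-5p) and HOX cluster (miR-10) loci. miR-200c-3p and miR-141-3p lie side by side on chromosome 4.
miR-200c-3p: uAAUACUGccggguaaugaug
miR-141-3p: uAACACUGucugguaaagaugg
miR-205: uCCUUCAUuccaccggagucugu
miR-451-5p: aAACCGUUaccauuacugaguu
miR-10a-5p: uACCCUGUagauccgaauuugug
miR-10b-5p: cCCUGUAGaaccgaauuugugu

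The second set had higher shares in the IL-4/C1q library. Its first members are typical of fibroblasts and smooth muscle (miR-143, miR-145, miR-199a), and the next come from the imprinted Dlk1-Dio3 region of chromosome 6 (miR-127-3p, miR-370-3p, and the pair miR-381-3p and miR-539-3p, which share a seed).
miR-143-3p: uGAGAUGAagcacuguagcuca
miR-143-5p: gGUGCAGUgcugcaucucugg
miR-145-5p: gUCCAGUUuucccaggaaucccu
miR-199a-5p: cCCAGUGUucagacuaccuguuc
miR-199a-3p: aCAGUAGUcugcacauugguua
miR-127-3p: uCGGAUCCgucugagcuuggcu
miR-370-3p: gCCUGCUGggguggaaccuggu
miR-381-3p: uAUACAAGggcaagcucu
miR-539-3p: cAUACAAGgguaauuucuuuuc

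The third set shows families of 1 seed. The miR-17 family had a higher summed share, while the members of the miR-181 family lay on both sides of a ratio of 1.
miR-20a-5p: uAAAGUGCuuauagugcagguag
miR-93-5p: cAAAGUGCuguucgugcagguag
miR-17-5p: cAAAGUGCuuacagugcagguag
miR-106b-5p: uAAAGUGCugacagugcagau
miR-20b-5p: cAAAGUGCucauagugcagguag
miR-181a-5p: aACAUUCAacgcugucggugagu
miR-181b-5p: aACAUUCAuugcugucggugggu
miR-181c-5p: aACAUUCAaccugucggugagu
miR-181d-5p: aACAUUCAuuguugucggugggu

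The rat-named totals were 5930379 counts in the untreated and 7345954 counts in the IL-4/C1q library, 93.9% and 94.4% of all counts with a miRNA name. Levels are given as counts scaled to a rat-named total of 1000000 (CPM). The 13 miRNAs listed for astrocytes and glia together held 64.5% of the untreated and 61.7% of the IL-4/C1q counts. This sum does not test the astrocyte label, because several of the 13, such as miR-21-5p and let-7c-5p, are not particular to glia. Only 1 of the 13, miR-9a-3p, passed the size rule given next (40883 against 23668 counts, 2.14-fold lower with IL-4/C1q). miR-21-5p, abundant in reactive glia, alone held 38.1% and 41.0%, and the neural lineage miRNA miR-9a-5p held 4.76% and 3.59%. miRNAs typical of other cells were present as well. The neuronal miRNAs miR-129-5p and miR-128-3p were at 34998 and 20667 and at 16790 and 14652 counts. Of the oligodendrocyte miRNAs, miR-219a-5p was at 751 and 530 counts, miR-338-5p at 569 and 502 and miR-338-3p at 159 and 96. The endothelial miRNA miR-126a-3p was at 319 and 269 counts. Of the leukocyte miRNAs, miR-155-5p was at 1884 and 3025 counts, miR-342-3p at 969 and 1520 and miR-150-5p at 41 and 46. miR-223-3p and miR-142 appeared only under names of other species, outside the rat-named comparison: mmu-miR-223-3p was at 368 and 238 counts, cpo-miR-142-5p at 725 and 246, with a ratio of 0.274 (0.236 to 0.317), and cpo-miR-142-3p at 5 and 0.

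A difference was called when the ratio was at least 2-fold, its exact conditional binomial 95% interval excluded 1, and the higher library held at least 50 counts. By this size rule 54 of the 354 miRNAs (15.3%) had a higher share with IL-4/C1q, 53 (15%) had a lower share, and 247 had neither, so that 107 (30.2%) differed in one direction or the other. Log2 ratios ran from −8.15 to 4.18 around a median of −0.04, with quartiles at −0.52 and 0.62, and 182 miRNAs lay within 1.5-fold. The lower side reached further, with 22 miRNAs at least 4-fold lower and 13 at least 10-fold lower, against 11 at least 4-fold higher. Under the authors' own scaling the split was 74 higher and 40 lower, because that scaling raised every log2 ratio by 0.18. Most of the called miRNAs were minor species: the 54 higher ones held 2.43% of the untreated and 8.57% of the IL-4/C1q counts, and the 53 lower ones 3.33% and 0.95%. The size rule in 41 calls rested on a library with under 50 counts on the other side, in 22 of the higher and 19 of the lower miRNAs. Just inside the minimum lay miR-448-3p with 19 and 50 counts and miR-10a-3p with 51 and 0, and just outside it lay miR-150-5p with 41 and 46 and miR-146b-3p with 49 and 0.

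**Figure D1:**
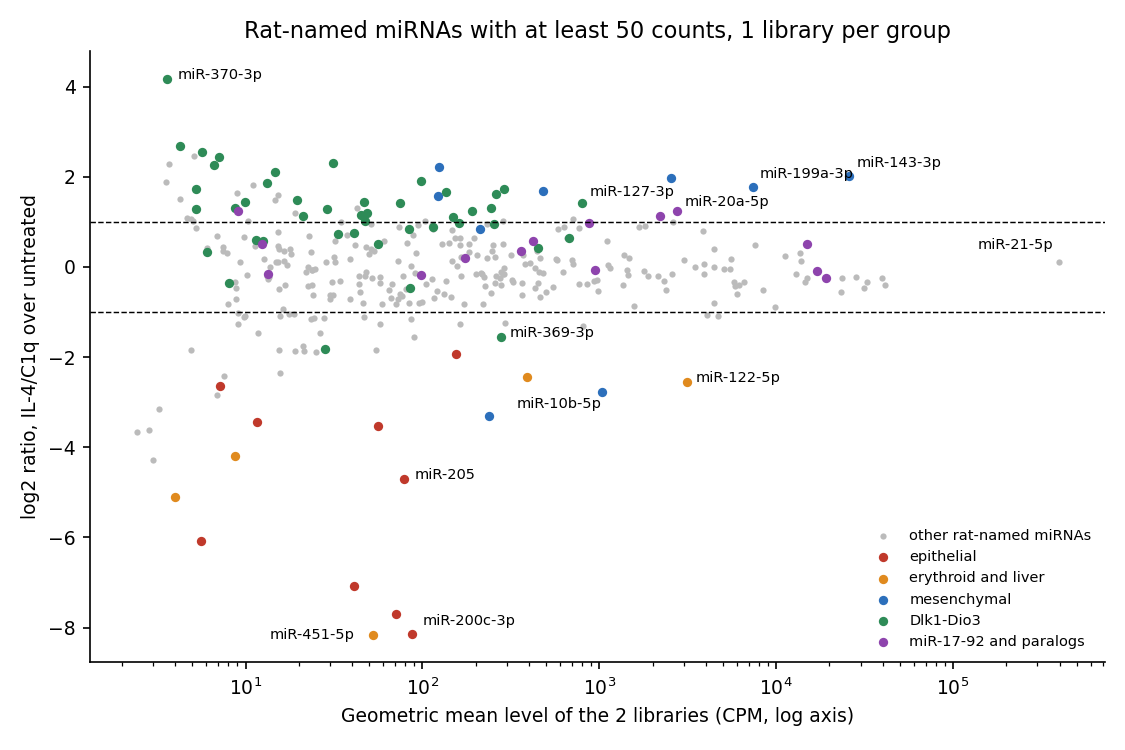
Each point is 1 of the 354 rat-named miRNAs. The horizontal log axis is the geometric mean level of the untreated and IL-4/C1q libraries in CPM, the vertical axis is the log2 ratio of IL-4/C1q over untreated, dashed lines mark 2-fold, and colours mark 5 miRNA lists. Epithelial and erythroid miRNAs lie lowest, down to −8.15, while miR-143-3p is the most abundant miRNA above the 2-fold line.

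The lowest shares with IL-4/C1q belonged to epithelial miRNAs. The miR-200 family keeps epithelial cells from turning mesenchymal by repressing ZEB1 and ZEB2. miR-200c-3p had 8646 counts without and 38 with IL-4/C1q, 282-fold lower (95% interval 205 to 399). miR-200b-3p had 6009 against 36 counts, 207-fold lower (149 to 295), and miR-200a-3p 2852 against 26, 136-fold lower (92.5 to 208). Their partner miR-141-3p went from 273 counts to 0, which with a floor of 5 counts is at least 67.6-fold lower. In each of these the IL-4/C1q library held at most 38 counts, so the size of the fold rests on few reads.

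The other epithelial miRNAs lay on the same side. miR-205, a marker of stratified epithelium, had 2369 and 113 counts, 26-fold lower (21.5 to 31.6). miR-375-3p, made in endocrine and secretory epithelium, had 1120 and 121 counts, 11.5-fold lower (9.50 to 13.9). The sensory epithelium pair miR-182 (226 and 26 counts) and miR-183-5p (106 and 21) shared a locus and a direction, and the skin miRNA miR-203a-3p differed least at 1784 and 578 counts, 3.82-fold lower (3.48 to 4.21). All 9 epithelial miRNAs that reached the minimum were thus called lower, against 15% of all tested, with a median log2 ratio of −4.70 beside −0.04 overall. The miR-200 members, miR-141-3p, miR-182 and miR-183-5p reached it only through the untreated library, where they were high. The share called lower is therefore partly set by the minimum. Of 11 listed, miR-96-5p (29 and 5 counts) was under the minimum and the rat-named row of miR-429 was at 0 in both libraries. Reads of miR-429 stood under other species' names, with 308 and 0 counts for cja-miR-429 and 30 and 0 for hsa-miR-429. The rat-named members of the epithelial list summed to 3948 CPM in the untreated and 131 CPM in the IL-4/C1q library. In bulk RNA of this kind, fewer vesicles or cells of a type and less RNA from each cannot be told apart.

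Erythroid and liver miRNAs were lower as well. miR-451-5p, which is matured by Argonaute 2 without Dicer in red cell precursors, had 5291 and 23 counts, 285-fold lower (190 to 450). Both arms of its neighbour miR-144 followed, with 220 and 15 counts for miR-144-5p and 138 and 5 for miR-144-3p. The red cell miRNA miR-486 had 5368 and 1232 counts, 5.40-fold lower (5.07 to 5.75). The liver miRNA miR-122-5p, at 44888 and 9508 counts, had the most counts of any lower-called miRNA in the untreated library and was 5.85-fold lower (5.72 to 5.98). All 5 members tested were called lower, against 15% of all tested, with a median log2 ratio of −4.18. Of these, miR-451-5p and both arms of miR-144 reached the minimum only through the untreated library, where they were high. The sum of the list was 9427 CPM in the untreated and 1468 CPM in the IL-4/C1q library.

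Of the 13 miRNAs at least 10-fold lower, 10 belonged to these epithelial and erythroid or liver lists. Rows with a bovine name, which lie outside the rat-named comparison, moved beside them: their sum was 4688 CPM, scaled by the same rat-named total, in the untreated and 796 CPM in the IL-4/C1q library. Of the 27798.8 untreated bovine-named counts, 15970.5 were of bta-miR-1246, which had 3025 counts with IL-4/C1q. Other bovine names were lower as well, such as bta-miR-2284x (2115 and 433 counts) and bta-mir-2285af-1-p5 (373 and 62). Not all were, since bta-miR-378 (191 and 323) had a ratio of 1.37. The human-named hsa-miR-1246 (13657 and 2835 counts) and hsa-miR-1290 (476.5 and 83) were lower too, so lower shares were not limited to bovine names. All names other than rat, the bovine ones included, summed to 65503 and 59048 CPM. With IL-1α/TNF-α/C1q, a comparison that shares the untreated library, the summed epithelial level was 138 CPM and the erythroid and liver level was 1117 CPM. With 1 untreated library, a lower share after treatment and a higher share particular to that library cannot be told apart, and the part of the bovine-named rows in these values was not tested.

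miR-10a-5p and miR-10b-5p, which lie within the HOXB and HOXD gene clusters and are made in posterior tissues, were also lower. miR-10b-5p had 16088 and 2911 counts, 6.85-fold lower (6.58 to 7.12), and miR-10a-5p had 4425 and 553 counts, 9.91-fold lower (9.07 to 10.8). The opposite arms followed with few counts, 59 and 6 for miR-10b-3p and 51 and 0 for miR-10a-3p. The IL-1α/TNF-α/C1q library, with a rat-named total of 11633125 counts, held 3417 counts of miR-10b-5p and 699 of miR-10a-5p. Both were thus lower there too, against the same untreated library. The deposited row of miR-10b-5p carries a tag read here as 2 bases added at the 5′ end. On the RefSeq hairpin that end gives the seed ACCCUGU, the seed of miR-10a-5p, in place of the CCUGUAG of the printed entry.

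Of the 39 miRNAs called lower outside the epithelial and the erythroid and liver lists, 4 were these miR-10 products, and the others were mostly 2- to 4-fold lower. Among neuronal miRNAs, miR-124-3p, the most neuron-typical, had 616 and 213 counts, 3.58-fold lower (3.06 to 4.21), and miR-129-5p had 34998 and 20667, 2.10-fold lower (2.06 to 2.13). The other 7 neuronal miRNAs tested were not called, and miR-7a-5p was at 3389 and 7596 counts, a ratio of 1.81 (1.74 to 1.88). The muscle miRNAs miR-206-3p (287 and 96 counts) and miR-133a-3p (260 and 117) were lower, whereas miR-499-5p (1556 and 1446) was not called. Counts of miR-1-3p were equal to those of the near-identical miR-1b, so reads were divided between them. miR-335, from the imprinted Mest locus, had 7508 and 3766 counts and was 2.47-fold lower (2.37 to 2.57). The mouse-named mmu-miR-335-3p, outside the rat-named comparison, had 968 and 992 counts, a ratio of 0.827 (0.756 to 0.905), and was not called.

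**Figure D2:**
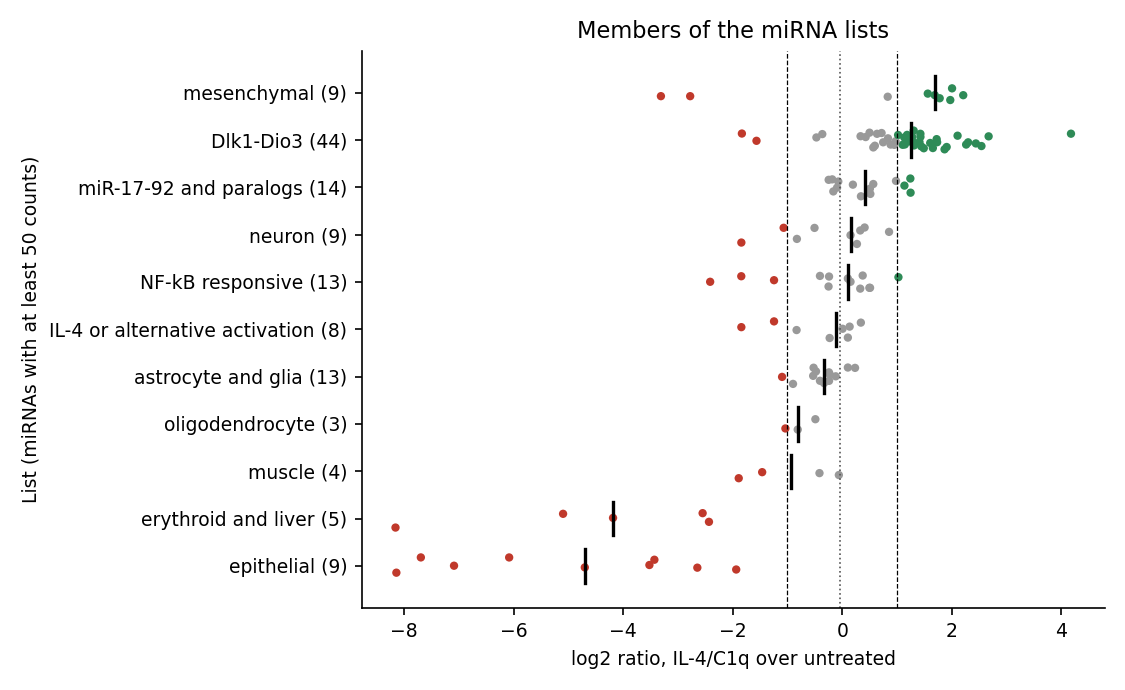
Each point is a miRNA of a list, placed by its log2 ratio of IL-4/C1q over untreated; the number after each list name is how many of its miRNAs reached 50 counts. Green and red points passed the size rule as higher and lower, black bars are list medians, the dotted line is the median of all 354 and dashed lines mark 2-fold. Mesenchymal and Dlk1-Dio3 medians lie at 1.69 and 1.26, erythroid and epithelial medians at −4.18 and −4.70.

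On the higher side, miR-143-3p accounted for most of the counts. This miRNA of smooth muscle, fibroblasts and pericytes had 76708 counts (1.29%, rank 16) without and 381572 counts (5.19%, rank 2) with IL-4/C1q, a ratio of 4.02 (3.98 to 4.05). Its only rat-named row carries the substitution tag A22T, read as A at position 22 of the entry, counted from its 5′ end, and T in the row. A setting that leaves tagged rows out therefore has no value for it. Its other arm, miR-143-5p, has no such tag and had 341 and 1954 counts, a ratio of 4.63 (4.12 to 5.21).

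miR-145, cut from the same transcript (chr18:57369997-57371428), was higher in both arms. miR-145-5p, which represses KLF4 and other stem cell factors, had 422 and 1544 counts, a ratio of 2.95 (2.65 to 3.30). The less usual arm miR-145-3p was the more abundant, with 1588 and 6346 counts and a ratio of 3.23 (3.05 to 3.41). All 4 products of this locus thus lay between 2.95 and 4.63. miR-199a, a mesenchymal miRNA transcribed on the strand opposite a dynamin gene, behaved alike at chr13:77116255-77121733. Its 5p arm had 7600 and 36962 counts, a ratio of 3.93 (3.83 to 4.02), and its 3p arm 23551 and 100170, a ratio of 3.43 (3.39 to 3.48). Their neighbour miR-214-3p, at 938 and 2067 counts, reached a ratio of 1.78 (1.65 to 1.92) and was not called.

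In the mesenchymal list 6 of 9 tested miRNAs were called higher, against 15.3% of all tested, and 2, the miR-10 pair, were called lower. The list's median log2 ratio was 1.69, and its sum was 22201 CPM in the untreated and 72704 CPM in the IL-4/C1q library, 3.27-fold higher. The IL-1α/TNF-α/C1q library, set against the same untreated library, held 49475 CPM of these miRNAs. The part that a different number of mesenchymal cells in the cultures had in these values was not tested.

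The largest group of higher miRNAs came from the Dlk1-Dio3 imprinted region. Its miRNAs are transcribed from the maternal chromosome only, together with the noncoding RNA Meg3, and are abundant in embryo, placenta and brain. On GRCr8 the tested members lay on the plus strand in 3 clusters over 273 kb (chr6:134306510-134579828). Of 47 tested miRNAs there, 32 (68.1%) were called higher against 15.3% of all tested, 2 were called lower and 13 neither, and 43 had a log2 ratio above 0. The median log2 ratio was 1.29. The stretch thus gave 32 of the 54 miRNAs called higher. Some of these 32 reached the minimum only through the IL-4/C1q library, where they were high. Among them were miR-370-3p (5 and 112 counts), miR-665 (10 and 79) and miR-673-5p (14 and 101). The share called higher is therefore partly set by the minimum. It also covers rat-named rows only, and names of other species went both ways. bta-miR-380-3p had 2806 and 589 counts, a ratio of 0.169 (0.155 to 0.185), beside 61 and 112 for the rat-named miR-380-3p. bta-miR-665 was lower in share too (77 and 15). mmu-miR-433-3p (510 and 1261) and mmu-miR-431-3p (107 and 206) were higher in share.

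miR-127-3p, antisense to the retrotransposon-derived gene Rtl1, was the most abundant called member, with 2885 and 9614 counts and a ratio of 2.69 (2.58 to 2.81). miR-381-3p had 948.5 and 3882 counts, a ratio of 3.31 (3.08 to 3.55), and miR-300-3p had 880.5 and 3322, a ratio of 3.05 (2.83 to 3.29). miR-541-5p (302 and 1403 counts) reached 3.75 (3.31 to 4.26). The dendrite-localised neuronal miRNA miR-134-5p (457 and 1783) reached 3.15 (2.84 to 3.50). Higher ratios were found for scarce members: miR-540-3p had 83 and 506 counts, a ratio of 4.92 (3.90 to 6.29), and miR-370-3p had 5 and 112, a ratio of 18.1 with an interval from 7.52 to 56.8. The clusters differed in how uniform they were. In the first (chr6:134306510-134331404) 11 of 12 were called higher, and in the second (chr6:134347871-134354559) 3 of 3. In the third and largest (chr6:134543460-134579828) 18 of 32 were called higher and 2 lower.

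The exceptions sat at the far end of the third cluster. miR-369-3p had 2844 and 1191 counts, 2.96-fold lower (2.76 to 3.17), although its own 5p arm was higher at 20 and 60 counts. miR-412-5p had 316 and 110 counts, 3.56-fold lower (2.86 to 4.46). Upstream of both, miR-409a-3p was called higher with 739 and 2163 counts, and downstream the last member, miR-410-3p, was not called with 374 and 827. miR-323-3p (593 and 530) and miR-376c-3p (54 and 52) also lay below a ratio of 1 without passing the rule. miR-299b-3p, matched to the opposite strand inside the stretch and not counted in it, was lower at 57 and 8 counts.

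**Figure D3:**
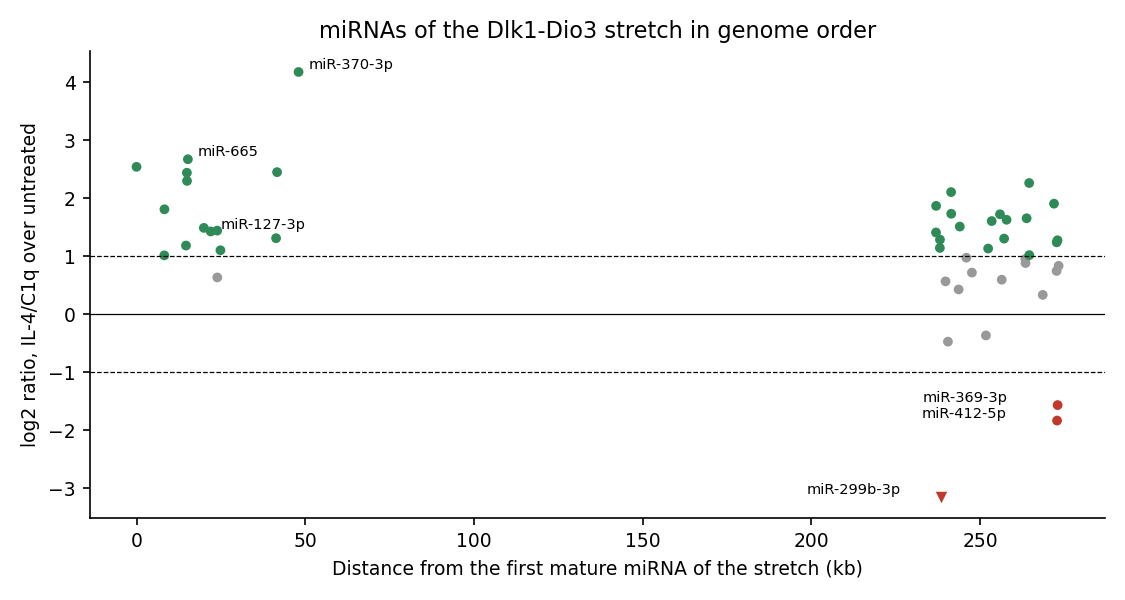
Each circle is a tested miRNA of the plus strand of the Dlk1-Dio3 stretch, at its distance in kb from the first mature miRNA, with the log2 ratio of IL-4/C1q over untreated on the vertical axis. Green passed the size rule as higher, red as lower, grey neither; the triangle is miR-299b-3p on the opposite strand, and dashed lines mark 2-fold. The members before 50 kb all lie above 0, while miR-369-3p and miR-412-5p lie below −1 near the end.

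Across the genome, 37 clusters held at least 2 tested hairpins with gaps of at most 10000 bases on one strand. In 26 of them all members lay on one side of a ratio of 1, and in 21 the members were within 2-fold of each other. Some miRNAs, such as let-7c-5p and miR-194-5p, are encoded in more than 1 cluster and enter each with the same counts. The clusters are therefore not separate observations. A cluster on the X chromosome (chrX:137720952-137726219), known to be induced in muscle differentiation and to restrain the cell cycle, held 11 tested miRNAs of miR-322, miR-503, miR-351, miR-542 and miR-450. All 11 had higher shares with IL-4/C1q, between 0.53 and 1.06 on the log2 scale, but only miR-542-3p passed the rule (2924 and 7562 counts, ratio 2.09, 2.0 to 2.18). miR-351-5p stopped just short at 11062 and 27135 counts, a ratio of 1.98 (1.94 to 2.02), and miR-450a-5p had 7791 and 18220, a ratio of 1.89 (1.84 to 1.94). miR-542-5p, under the minimum, did not follow with 46 and 38 counts. Names of other species, outside the 11, did not all follow either. dno-miR-450b-5p and bta-miR-450b each had 1244 and 240.5 counts, a ratio of 0.156 (0.135 to 0.179). dno-miR-503-5p had 0 and 8 counts.

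Seed families were formed by summing miRNAs with the same bases 2 to 8 of the RefSeq entry. By the deposited row, miR-10b-5p is read to carry the seed of miR-10a-5p. These 2 miRNAs, both called lower, were not summed as a family. The same holds for miR-379-3p and miR-411-3p, both called higher. Names without a RefSeq sequence, 31 of the 354 tested, are in no family, so that family sums cover matched members only. Among them are miR-200a-3p and miR-200b-3p, and the families they would form with miR-141-3p and miR-200c-3p are therefore not in these counts. Of 41 families with at least 2 detected members and 50 counts, 2 (4.88%) were called higher and 1 (2.44%) lower, and the median family log2 ratio was −0.09. The miR-17 family, seed AAAGUGC, promotes cell cycle progression by repressing inhibitors such as p21. Its sum was 0.422% of the untreated and 0.913% of the IL-4/C1q counts, a ratio of 2.17 (2.13 to 2.20). miR-20a-5p had 10600.75 and 31107.92 counts, a ratio of 2.37 (2.32 to 2.42), and miR-93-5p had 8766 and 23866, a ratio of 2.20 (2.14 to 2.25). miR-17-5p (3700.5 and 9056.83 counts), miR-106b-5p (1888 and 2965) and miR-20b-5p (61.75 and 109.25) were above a ratio of 1 without being called. The fractional counts show that reads were divided among these near-identical members, which leaves the family sum unaffected.

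The difference did not extend to all members of the same clusters. Of miRNAs encoded in the miR-17-92 cluster on chromosome 15, miR-92a-3p had 103609.33 and 120300.33 counts, a ratio of 0.937 (0.930 to 0.945). miR-19b-3p had 5739 and 6766 counts. These 2 and miR-17-5p are also encoded on the X chromosome, so their counts cannot be assigned to a locus. miR-19a-3p, placed on chromosome 15 only, had 966 and 1370 counts and was not called. In that cluster 2 of 8 miRNAs were called, miR-20a-5p and miR-18a-5p (35 and 103 counts). Beside miR-93 on chromosome 12, miR-25-3p had 74258 and 130557 counts and a log2 ratio of 0.51. The other family called higher was the Dlk1-Dio3 pair miR-381-3p and miR-539-3p with seed AUACAAG, a ratio of 3.27 (3.05 to 3.51), nearly all of it from miR-381-3p. The 1 matched family called lower, seed AUCUUAC, holds the passenger arms miR-200a-5p and miR-200b-5p, with 94 and 5 counts in sum; the miR-200 guide arms, given above as single miRNAs, were not summed.

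The matched members of the abundant let-7, miR-30 and miR-125 families differed in sum by less than 1.5-fold. The let-7 family, which holds cells in a differentiated state, made up 7.99% and 6.34% of the counts, a ratio of 0.793 (0.790 to 0.796). Of the miR-30 family, miR-30a-5p, miR-30c-5p, miR-30e-5p and miR-384-5p together made up 5.22% and 3.77%, a ratio of 0.722 (0.718 to 0.725). The unmatched miR-30d-5p (96410.5 and 94988 counts) and miR-30b-5p (3603.33 and 3027.67) are not in that sum. The miR-125 family made up 5.78% and 5.43%. None of the 3 passed the size rule. Of 33 families with at least 2 tested members, 19 had all members within 2-fold of each other.

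In several families the members differed from each other. In the miR-181 family, which tunes lymphocyte signalling and glial inflammation, miR-181a-5p had 79715.5 and 52993 counts (log2 ratio −0.90) and miR-181b-5p 40036.83 and 37083.33 (−0.42). From chromosome 19, miR-181c-5p had 1285 and 1821 counts (0.19) and miR-181d-5p 5354.67 and 9848.67 (0.57). miR-181a-5p is encoded on chromosomes 13 and 3, and its reads were divided equally between 2 rows, so its counts cannot be assigned to a locus. Fractional counts show that reads were also divided among relatives in this family. miR-148a-3p (35032 and 24876 counts, log2 ratio −0.80) and miR-152-3p (17367 and 37119.5, 0.79) parted likewise. miR-23b-3p was 2.42-fold lower (1501 and 768 counts, 2.22 to 2.64), while miR-23a-3p stayed at 30740 and 36790 counts with a log2 ratio of −0.05. In the miR-34/449 family, which drives formation of motile cilia, 2 neighbours on chromosome 2 were called in opposite directions, miR-449a-5p with 919 and 385 counts and miR-449c-5p with 20 and 52.

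**Figure D4:**
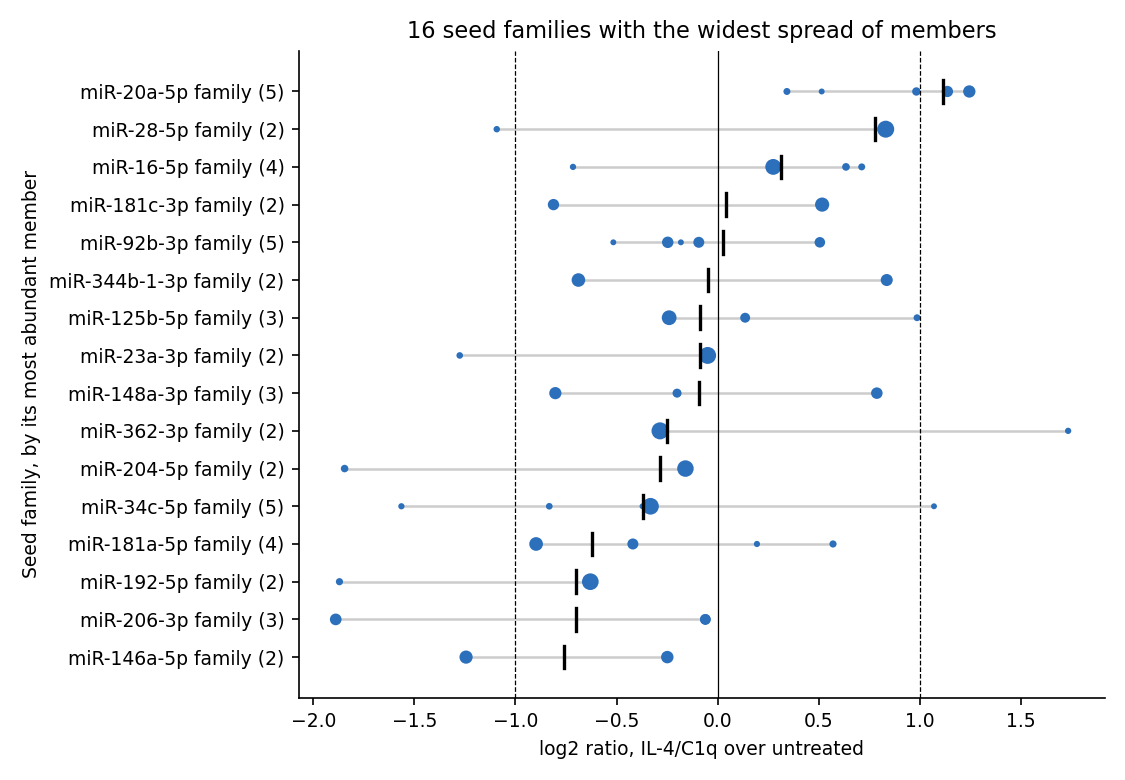
Rows are the 16 seed families whose tested members differ most, named by their most abundant member with the number of tested members. Points are members placed by their log2 ratio of IL-4/C1q over untreated and sized by their share of the family, black bars are the ratio of the summed counts, and dashed lines mark 2-fold. The bar of the miR-20a-5p family lies at 1.11, and in the miR-181a-5p family the members spread from −0.90 to 0.57.

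Arm choice was compared in 90 hairpins in which both arms reached 50 counts in one library. The ratio of 5p to 3p counts differed by less than 1.5-fold in 64, and by at least 2-fold with an interval excluding 1 in 10 (11.1%). All 10 had a higher 5p share with IL-4/C1q. That direction depended on the rule, since with no minimum count 20 shifted to 5p and 10 to 3p, and with a 1.5-fold rule 18 and 6. In 8 of the 10 the minor arm had under 200 counts in both libraries. In 7 the 3p arm was itself called lower and in 4 the 5p arm was called higher. Cells given IL-1α/TNF-α/C1q likewise had a higher 5p share than untreated cells for all 10 hairpins. For miR-204 this share was 95.6%, beside 85.8% untreated and 96.5% with IL-4/C1q. For miR-23b it was 11.6%, beside 3.41% and 8.46%. Both comparisons use the same untreated library, and its part in these shifts was not tested.

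miR-204, a miRNA of choroid plexus and pigment epithelium, had a shift that rested on more reads of the minor arm than most. Its 5p arm had 1265 and 1403 counts and its 3p arm 209 and 51, so that the 5p share went from 85.8% to 96.5%, an odds ratio of 4.55 (3.30 to 6.36). miR-31a changed in the same way, from 95.8% to 99.1% 5p, with 3p counts of 55 and 19 and an odds ratio of 5.06 (2.94 to 9.06). In both, the 3p arm was lower while the 5p arm was not called. miR-369 had an odds ratio of 7.16 (4.23 to 12.6) from the opposite moves of its arms given above. For miR-200b, with an odds ratio of 10.7 (3.19 to 28.3), the IL-4/C1q library held only 5 reads of the 5p and 36 of the 3p arm. The more abundant arm changed in 2 hairpins, neither of them shifted 2-fold: miR-324 went from 230 5p and 216 3p counts to 186 and 304, and miR-708 from 136 and 216 to 79 and 73.

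**Figure D5:**
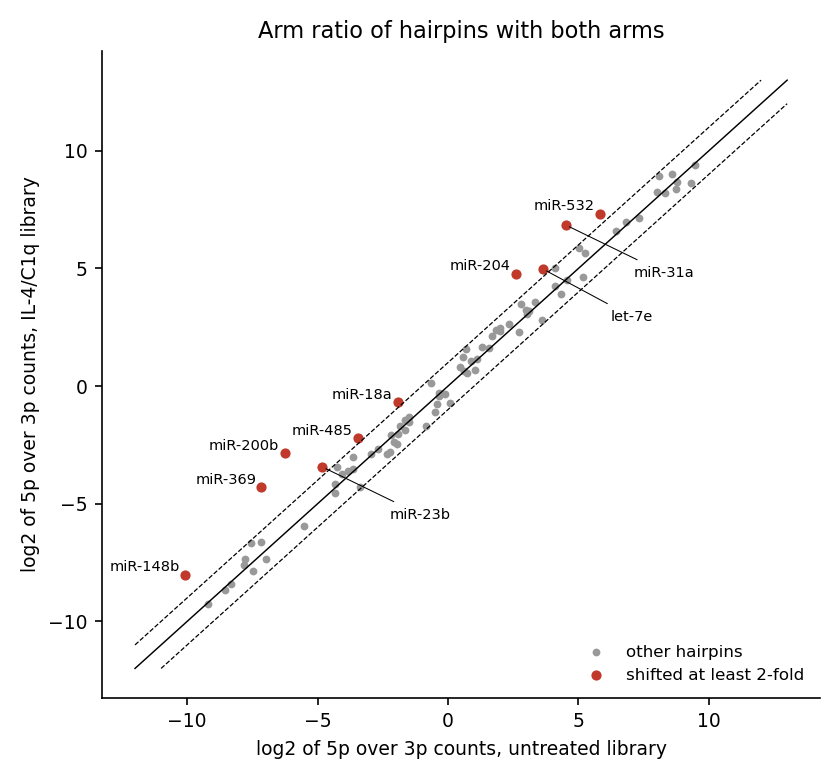
Each point is a hairpin with both arms, placed by the log2 of its 5p over 3p counts in the untreated (horizontal) and IL-4/C1q (vertical) library. The solid line marks equal arm ratios and the dashed lines a 2-fold shift. The 10 red hairpins passed the arm rule and lie above the upper dashed line.

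Length variants were read from the tags of the deposited rows, taken here to give bases added or removed at each end, a reading the files do not state. Most names had 1 row, so a change of length within a miRNA could be seen in only 6 names that had rows of different length with at least 20 counts each, a minimum chosen after the values were seen. The shorter form had a lower share with IL-4/C1q in 5 of the 6. The interval of the odds ratio excluded 1 in 2 of them, miR-129-1-3p (3.58% and 2.64%) and miR-92a-3p (6.40% and 6.14%). miR-194-5p went from 30.4% to 28.0%, and miR-466c-5p moved the other way, from 14.8% to 21.1% on 21 and 54 counts of the short form. These shifts were of a few percentage points, smaller than the differences in level above.

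The summed share of end forms over all rows differed little. Rows with both ends as in the entry held 67.9% of the untreated and 68.4% of the IL-4/C1q counts. Rows with a shorter 3′ end held 17.2% and 14.9%, and rows with a longer one 11.3% and 9.58%. Rows with a substitution tag held 3.11% and 6.74%, and the miR-143-3p row accounts for 1.29% and 5.19% of all counts within these. Of 28 tested miRNAs whose leading row had a moved 5′ end, and so another seed than the entry, 6 were called higher and 4 lower, beside 15.3% and 15% of all tested.

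miRNAs known to answer inflammatory or alternative activation were described by list. The 13 NF-kB responsive miRNAs tested had a median log2 ratio of 0.10, with 1 called higher and 3 lower, and the 8 linked to IL-4 or alternative activation one of −0.11, with 0 called higher and 2 lower. These are small lists, to be read beside the 15.3% called higher and 15% called lower of all tested. miR-146a-5p, which damps Toll-like receptor signalling and is in both lists, had 2666 and 1394 counts, 2.37-fold lower (2.22 to 2.53). miR-146b-5p, which has the same seed, had 1776 and 1851 counts and was not called. Their summed ratio of 0.590 (0.563 to 0.617) was not called either. miR-155-5p, a promoter of inflammatory activation, had 1884 and 3025 counts and was not called. miR-147, also induced by Toll-like receptors, had 103 and 24 counts, 5.32-fold lower (3.38 to 8.67). The IL-4 list also holds miR-124-3p, at 616 and 213 counts as given above.

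A direct comparison of the IL-4/C1q with the IL-1α/TNF-α/C1q library, which does not use the untreated library, called 4 of 355 miRNAs (1.13%). miR-147 (82 counts with IL-1α/TNF-α/C1q and 24 with IL-4/C1q), miR-501-5p (73 and 21) and miR-466b-5p (66 and 9) had lower shares with IL-4/C1q, and miR-217-5p (66 and 97) a higher one. Of the 107 miRNAs called against untreated, only miR-147 was among these 4. All 54 higher and all 53 lower miRNAs had the same direction with IL-1α/TNF-α/C1q over untreated, and 42 and 44 of them were called there. That comparison shares the untreated library. At the miR-143/145 locus the direct ratio of IL-4/C1q over IL-1α/TNF-α/C1q was 1.6 for miR-143-3p, 1.86 (1.74 to 1.99) for miR-143-5p and 1.70 (1.58 to 1.83) for miR-145-5p. miR-20a-5p was lower with IL-4/C1q than with IL-1α/TNF-α/C1q, at 4235 against 5744 CPM, a ratio of 0.737 (0.727 to 0.747).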

How the data were processed

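The deposited tables held, per row, an estimated count (headed raw) and a signal (headed normalized), which the authors made by multiplying the count by a constant per library (1.25 untreated, 1.14 IL-4/C1q). Estimated counts of reads matching several rows were divided, as the deposited fractions show. No aligner, counter, database version or build was read from a label or header, and each is not given in the sources used here. Of 1480 rows, 548 were rat-named and were summed to 499 names, 29 of them from several rows. Rounded counts gave Clopper-Pearson type exact conditional binomial 95% intervals (Python 3.11.15, scipy 1.17.1). PCR copies are not independent molecules. The floor against a count of 0, 5 counts in a library, was set after the values were seen, since whole values mostly start at 5 (2 of 417 untreated and 1 of 418 IL-4/C1q values above 0 lay under it). RefSeq sequences and positions (GRCr8) matched 323 of the 354 tested names. Scripts were tested on simulated data. Alternatives were TMM factors (edgeR 4.0.16), DESeq2 1.42.0 size factors, the deposited signal and other totals, rows and minimums.

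The members and miRNA lists were chosen with earlier results of these data known. Named miRNAs are the 12 highest and 12 lowest calls with at least 200 counts, the 8 most abundant per library, up to 4 per list, members of called seed families, the 6 largest arm shifts and the names with several lengths. Any further miRNA named in the text was picked with its values in view. The other lists tested were oligodendrocyte (1 of 3 called lower, median log2 ratio −0.81), microglia and leukocyte (0 of 2 called, 0.36), endothelial (0 of 2, −0.48), muscle (2 of 4 lower, −0.94), neuron (2 of 9 lower, 0.15), astrocyte (1 of 13 lower, −0.33), miR-17-92 with paralogs (3 of 14 higher, 0.42) and Dlk1-Dio3 (28 of 44 higher, 2 lower, 1.26).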

Additional observations from a re-analysis of the deposited data

Results flagged for a closer look

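Outside the rat-named comparison, 3 miRNAs without a rat-named row of their own reached at least 200 counts and a share at least 2-fold above that of the untreated library. The mouse-named mmu-miR-690 was 2.20-fold higher with IL-4/C1q per rat-named count. The guinea pig-named cpo-miR-139-5p was 2.69-fold higher. The mouse-named mmu-miR-199b-5p was 3.38-fold higher. Between 50 and 200 counts, a further 3 names without a rat-named row of the identical name were at least 2-fold higher. These were cgr-miR-214-5p (43 and 159 counts, ratio 2.99), mmu-miR-3074-5p (19 and 65, 2.76) and cpo-miR-139-3p (11 and 64, 4.70). A rat-named miR-3074, with no arm in its name, was present.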

How the results depend on the processing

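With 54 higher and 53 lower miRNAs, 2 higher and 1 lower seed families and 10 shifted hairpins as reported, TMM factors gave 64 higher and 46 lower, DESeq2 size factors 64 and 45, and the deposited signal 74 and 40, raising all log2 ratios by 0.10, 0.11 and 0.18. Because these 3 scalings raised all ratios, none of the 54 higher calls could be lost. Of the 53 lower calls, 46, 45 and 40 were kept. With no minimum count there were 96 lower miRNAs, 4 higher families and 30 shifted hairpins, and at 20 counts 22 hairpins. At 200 counts there were 31 higher and 35 lower miRNAs, 0 lower families and 2 hairpins. A 1.5-fold rule gave 90 higher and 82 lower miRNAs, 4 higher and 8 lower families and 24 hairpins. A 4-fold rule gave 11 and 22 miRNAs, 0 higher families and 5 hairpins. A minimum on the mean of both libraries, chosen after seeing the data, gave 0 lower families and 6 hairpins. These minimums and folds change how many items can pass by construction. Of 558 alternative ratios of the 80 named miRNAs, 205 moved past the counting interval, 353 did not, and 0 ratios past the size rule changed direction. A change of scaling alone could not reverse a called ratio, since it moved log2 ratios by at most 0.18. Ratios near 1 that were not called crossed 1 for miR-1-3p, miR-92a-3p, miR-150-5p and miR-204-5p under other scalings and for miR-378a-3p with the highest row of each name only.

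No paired analysis was possible because each group has 1 library, and no library was left out for the same reason. Counts limit the calls on scarce miRNAs: 41 of 107 rest on under 50 counts in one library.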
